A study of Mus musculus with 4 samples.

Results

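The genes described here are the protein-coding mouse genes of the ADAM, ADAMTS and ADAMTS-like (ADAMTSL) families, chosen by the pattern of their symbols and by having at least 1 read in some lung. Of 45706 genes in the table, 57 matched the pattern and 49 had a read, 25 of them ADAM, 19 ADAMTS and 5 ADAMTSL genes. The reads came from RNA of left lung lobes at E17, taken from C57BL/6 mice that were either wild type, written Myh10+/+, or homozygous for the ENU-induced missense change L458R in Myh10, written Myh10-/- after the name used for them in that work. Myh10 encodes the heavy chain of nonmuscle myosin IIB, and the change is present in every cell of the embryo rather than in a chosen cell type. No lung was treated. There were 2 lungs per genotype from separate mice, called wt_1, wt_2, mut_1 and mut_2. Every p-value below thus rests on the spread between these 4 lungs alone. The tests steady the spread of each gene with that of all tested genes in the same lungs.

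ADAM proteins are membrane-anchored proteins with a metalloproteinase and a disintegrin domain, and the active ones cut, or shed, the outer parts of other membrane proteins such as Notch receptors, E-cadherin and the precursors of EGF-family ligands. ADAMTS proteins are secreted relatives with thrombospondin repeats that cut matrix molecules, among them versican, aggrecan and the propeptides of procollagens. ADAMTSL proteins keep the thrombospondin repeats but have no protease domain, and several of them bind fibrillin microfibrils, the scaffold on which elastic fibres form in the lung and other tissues.

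Most catalytic members can be told from non-catalytic ones by a short motif in their coding sequence. Active metalloproteinases of this kind hold a zinc ion with 3 histidines in a short motif. It was searched for here as the codons for histidine, glutamate, any pair, histidine, any pair, glycine or asparagine, any pair and histidine. The search used the coding strand of each gene's main coding transcript. This was a transcript marked as principal in GENCODE where there was such a mark, with the longest coding sequence taken among equals. Transcripts with an incomplete start were left out. The motif spans 11 codons, and 73 of 21817 genes with a coding transcript (0.335%) held it. Among the 49 members it was found in 32. These were all 9 of the proteolytic ADAMs of somatic tissues, 18 of 19 ADAMTS genes, and 5 of the 13 ADAMs known mostly from testis or epididymis. It was found in 0 of the 3 ADAMs that bind LGI proteins and in 0 of the 5 ADAMTSL genes. A missing match, as for Adamts8, says only that these letters are not in the transcript searched. In 5 of the 32 the codon in the middle was for asparagine, in Adamts1, Adamts4, Adamts9, Adamts15 and Adamts20.

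The sites of members on which the results below turn are printed 5′ to 3′ from the GENCODE transcripts on GRCm38, with the codons of the motif residues in capitals. They are the ADAM with the lowest and the ADAM with the highest fold change among those with enough reads (Adam15, Adam33), the ADAMTS gene closest to the threshold of the test (Adamts18), an abundant asparagine-type ADAMTS gene (Adamts1), and, for contrast, the aligned stretch of the non-catalytic Adam22 and Adam23, found by aligning each to Adam12.
Adam15: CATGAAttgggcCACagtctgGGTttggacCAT
Adam33: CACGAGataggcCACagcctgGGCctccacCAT
Adamts18: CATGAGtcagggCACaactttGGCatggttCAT
Adamts1: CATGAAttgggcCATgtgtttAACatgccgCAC
Adam22: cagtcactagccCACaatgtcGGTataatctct
Adam23: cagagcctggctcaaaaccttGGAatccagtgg
The sites lie at chr3:89344780-89344812 (Adam15), chr2:131055130-131055162 (Adam33) and chr5:8143064-8143096 (Adam22) on the minus strand, and at chr1:63547763-63547795 (Adam23) on the plus strand, each within 1 coding exon. Those of Adamts18 (chr8:113767168-113771052) and Adamts1 (chr16:85799191-85799545), both on the minus strand, are split over 2 exons, so these spans include an intron. Of the 5 motif residues, Adam22 held 2 and Adam23 held 1.

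The authors counted 19116971 to 32055306 reads on genes per lung, and 23699 to 25359 genes had a read. Levels are given as CPM, the counts of a gene per 1000000 of the lung's TMM-scaled total count, and fold changes on the log2 scale from a count model with TMM scaling, as Myh10-/- over Myh10+/+. A gene was tested where its mean was at least 5 counts, which 18763 genes and 44 members reached. Myh10 itself, the mutated gene, had 505 and 504 CPM in the Myh10+/+ lungs and 539 and 513 CPM in the Myh10-/- lungs. A missense change need not alter this level, so it does not check the labels. Xist, which is expressed from the inactive X chromosome, had 3916 CPM in wt_1 and 4457 CPM in mut_2. In wt_2 and mut_1 it had 1.84 and 4.10 CPM. Ddx3y, a gene of the Y chromosome, had 182 and 198 CPM in wt_2 and mut_1 but 0.437 and 0.0932 CPM in wt_1 and mut_2. By these genes wt_1 and mut_2 were female and wt_2 and mut_1 male, so each genotype held 1 lung of each sex. Markers of all 14 cell type lists checked were detected, with no listed marker at 0 in all lungs. Of the AT1 markers 7 of 8 passed the test as lower, with a summed level of 3531 and 3408 CPM in the Myh10+/+ lungs and 2595 and 2940 CPM in the Myh10-/- lungs. Of the AT2 markers 6 of 7 passed as lower, with sums of 9159 and 8704 against 6087 and 7215 CPM. Of the tested heart and pulmonary vein muscle markers 4 of 5 passed as lower, with sums over the list of 144 and 190 against 110 and 101 CPM. Lower calls were also made for 3 of 6 pan-epithelial, 2 of 6 club and ciliated cell, 2 of 6 erythroid and 1 of 4 mesothelial markers. Of 8 lung mesenchyme markers 0 passed in either direction, with sums of 3954 and 4061 against 3857 and 3801 CPM. In the remaining lists 0 markers passed, and in no list did a marker pass as higher. In whole lobes, fewer cells of a type and less RNA per cell cannot be told apart. The study itself reported more AT2 cells and higher levels of Sftpa, Sftpc and Abca3 in mutant lungs, but less LAMP3. It also reported lower levels of the AT1 markers HOPX, PDPN and RAGE, and far fewer Vimentin-positive fibroblasts. Here Vim, among the mesenchyme markers, had 943 and 947 against 846 and 850 CPM (log2 fold change -0.16, edgeR adjusted p = 0.338). The stage of those measurements is not given in the text used here, and the reason for the differences from these values was not tested.

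Adamts10, Adam10 and Adamts1 were the most abundant members when CPM was divided by the length of annotated exons. Their mean levels over the 4 lungs were 56.9, 56.0 and 47.3 CPM per kb, and together they held 45.9% of the summed level of all 49 members. The top 10 members held 79.7%. Adam10 is the main sheddase of Notch receptors and E-cadherin, Adamts1 cleaves versican and aggrecan, and Adamts10 binds fibrillin and is mutated in Weill-Marchesani syndrome. After them came Adam9 (24.9 CPM per kb), Adam17, the sheddase of TNF and of most EGF-receptor ligands (20.6), Adamts9 (15.6), Adamtsl2 (15.04), Adam19 (14.9), Adamts17 (14.5), Adamts2 (12.1) and Adam12 (10.8). The ranges of Adamts10 and Adam10 over the lungs overlapped, 54.2 to 60.7 and 54.5 to 57.3 CPM per kb. Adam10 lay above Adamts1 in every lung, and Adamts1 (42.9 to 52.5 CPM per kb) lay above Adam9 (24.3 to 26.1 CPM per kb). Adam9 and Adam17 did not overlap either, nor did Adam17 and Adamts9. From Adamts9 to Adamts17, by contrast, the range of each gene overlapped that of the next. The ranges of Adamts2 (11.2 to 13.1 CPM per kb) and Adam12 (9.92 to 11.6 CPM per kb) overlapped too. The order of these overlapping genes is not settled by these lungs. The length is that of all annotated exons together, rare isoforms included, so a gene with many of these has too low a level here.

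**Figure D1:**
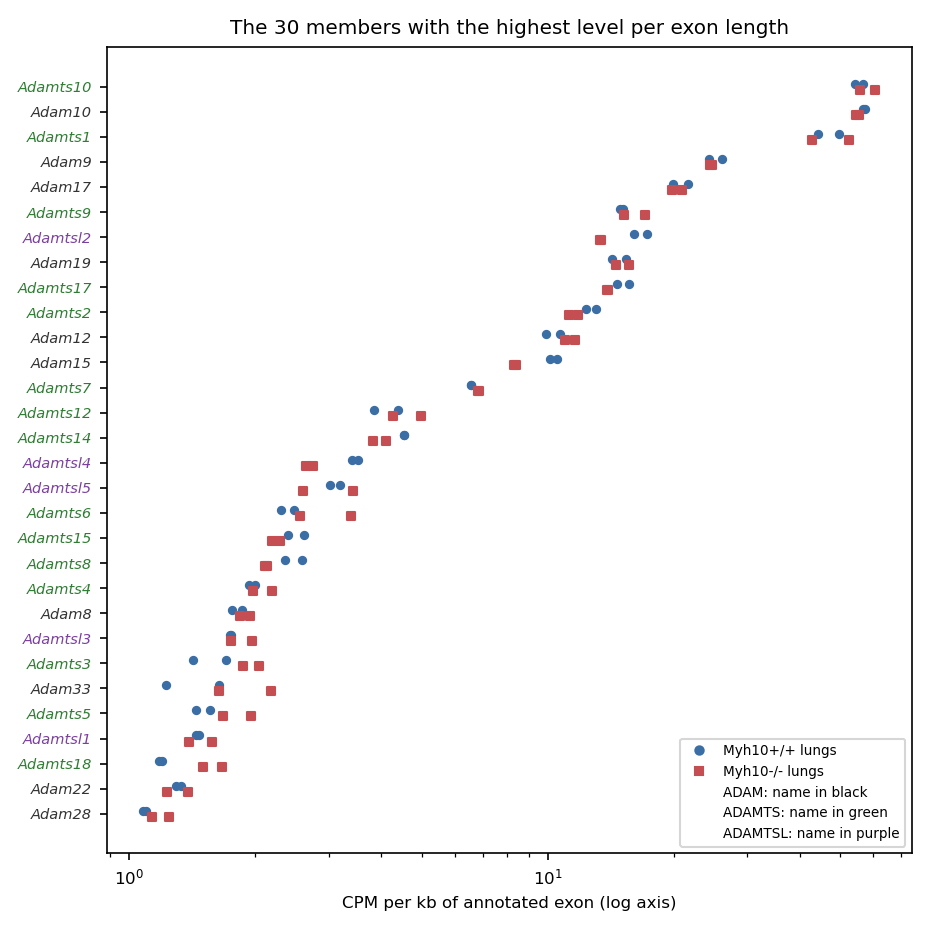
Level of the 30 members with the highest mean, in CPM per kb of annotated exon on a log axis, with 1 point per lung (circles, Myh10+/+; squares, Myh10-/-). Adamts10, Adam10 and Adamts1 lie apart from the rest at means of 47.3 to 56.9 CPM per kb, and the points of the genotypes lie side by side for most genes.

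At the lower end, 32 members reached a mean of 1 CPM per kb and 11 reached 10 CPM per kb. The ADAMs known mostly from testis or epididymis were scarce. Of these 13 genes, 8 could be tested, and their summed level was between 10.9 and 11.9 CPM in each lung. The other 5 had 3 reads (Adam2) or 1 read (Adam25, Adam29, Adam30 and Adam39) over all lungs. A further 8 genes matched the symbol pattern but had no read in any lung, Adam6a, Adam6b, Adam18, Adam20, Adam24, Adam26a, Adam26b and Adam34. A count of 0 allows up to 3 reads, which is 0.0932 to 0.158 CPM depending on the lung, counting error only.

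With edgeR's quasi-likelihood test and Benjamini-Hochberg adjustment over all tested genes, 1 of the 44 tested members was lower in the Myh10-/- lungs (2.27% of the members, against 1.34% of all tested genes) and 0 were higher (against 0.298% of all tested genes). In either direction the share of all tested genes was 1.64%. Of those 308 genes 252 (81.8%) were lower, against 234 of 346 (67.6%) with library totals in place of TMM. DESeq2's Wald test gave an adjusted p for 11487 genes and 31 members, and called 2 members lower (6.45%, against 2.25% of these genes) and 0 higher (against 0.74%). The median log2 fold change was 0.02 over the members and 0.00 over all tested genes, and single members ranged from -0.92 for the scarce Adamts13 to 0.43 for Adamts20. At an unadjusted p under 0.05, 6 members were lower (13.6%, against 9.02% of all tested genes) and 8 were higher (18.2%, against 7.52%), together 14 of 44 (31.8%, against 16.5%). The CPM of the genotypes did not overlap, with both Myh10-/- lungs below, in 11 members (25%, against 24.3%), and with both above in 13 (29.5%, against 23.9%), in all 24 members (54.5%, against 48.3%). In the 8 members that were higher without adjustment, mut_1 was above mut_2 in 8 of 8, and of the 6 lower ones in 2. Among all tested members it was so in 63.6%, and among all tested genes in 49.7%. In the Myh10+/+ lungs, wt_1 was above wt_2 in 52.3% of the tested members and in 50.9% of all tested genes.

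**Figure D2:**
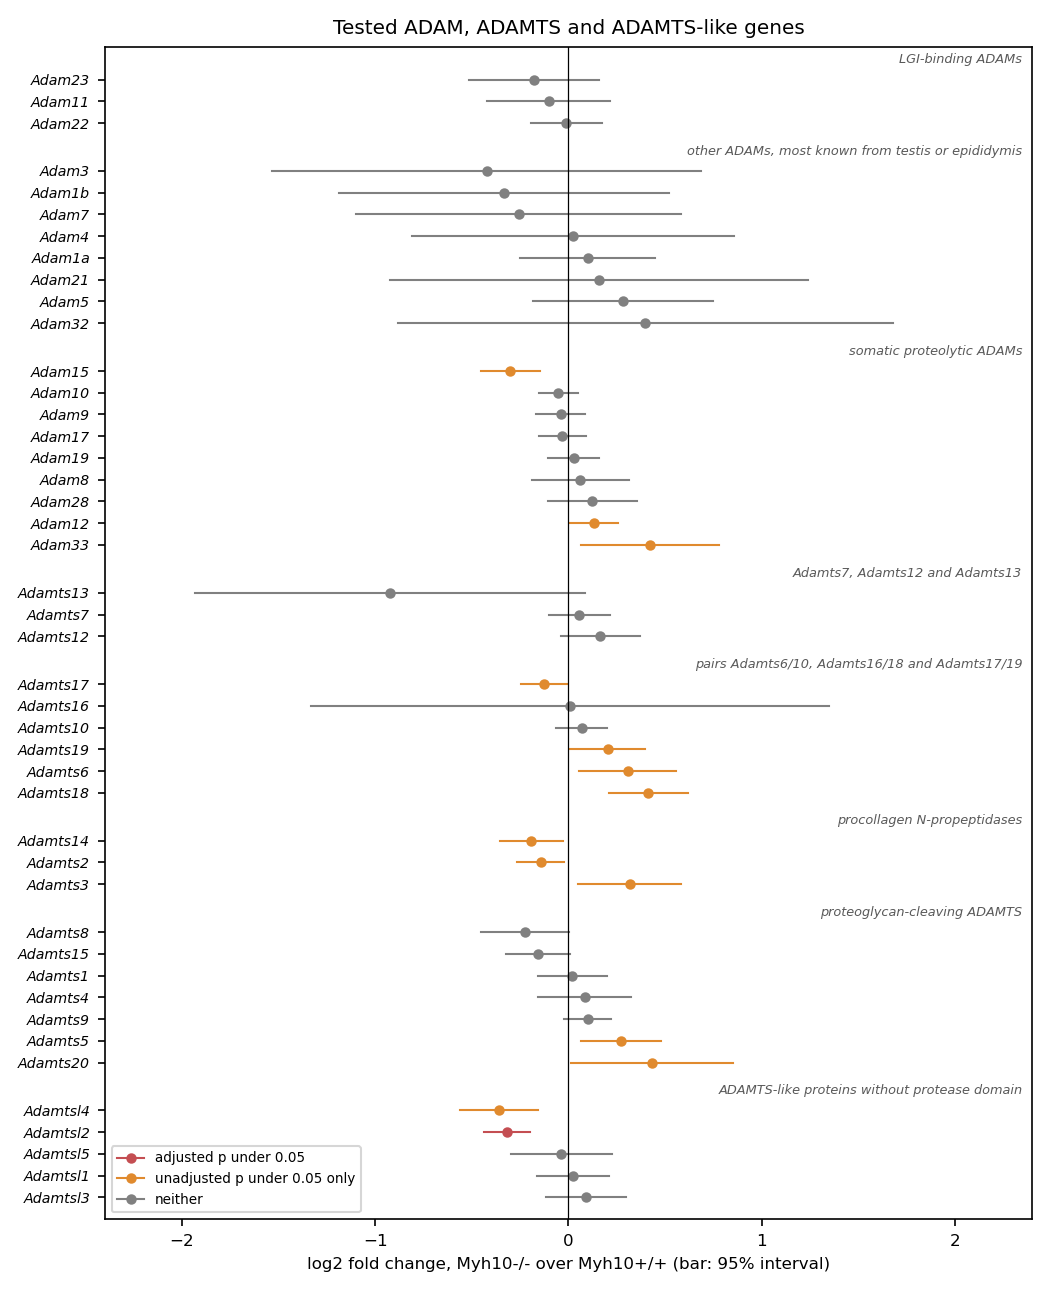
Log2 fold change, Myh10-/- over Myh10+/+, of the 44 tested members with 95% intervals, grouped by role. Adamtsl2 alone is marked as past an adjusted p of 0.05, while 13 others pass only without adjustment, and the widest intervals belong to scarce genes such as Adamts16 and Adam32.

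The member that passed was an ADAMTSL gene. Adamtsl2 (ENSMUSG00000036040, chr2:27079379-27108981, plus strand) encodes a secreted glycoprotein that binds fibrillin and the TGF-beta binding protein LTBP1 and is mutated in geleophysic dysplasia. It had 129 and 138 CPM in the Myh10+/+ lungs and 107 CPM in each of the Myh10-/- lungs. Both mutant lungs thus lay below both wild-type lungs, with almost no distance between them. The mean fell from 133 ± 6.71 to 107 ± 0.477 CPM (SD, n = 2 per genotype), a log2 fold change of -0.32 with a 95% interval of -0.44 to -0.20 (SE 0.05, edgeR adjusted p = 0.0178). The test was passed in all 13 alternative fits that kept the 4 lungs. With wt_2 left out the log2 fold change was -0.27 and the test was no longer passed. That fit has only 1 Myh10+/+ lung, so the smaller number of lungs and a dependence on wt_2 cannot be told apart. No exon of Adamtsl2 overlapped another gene and none of its 75-base windows occurred in another gene's transcripts. The lower markers given above, of alveolar and airway epithelium, heart and pulmonary vein muscle, erythroid cells and mesothelium, move with this gene, and their part in its change was not tested.

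Adamtsl4, whose product also associates with microfibrils and whose mutations displace the eye lens, had a change of similar size that did not pass. It had 14.3 and 14.8 CPM in the Myh10+/+ lungs and 11.5 and 11.1 CPM in the Myh10-/- lungs. The genotypes did not overlap, and the log2 fold change was -0.36 (95% interval -0.56 to -0.16, edgeR adjusted p = 0.0799). It passed in 2 of the 13 alternative fits. The remaining ADAMTSL genes were closer to 0. Adamtsl5 had 15.02, 14.3, 12.3 and 16.2 CPM in wt_1, wt_2, mut_1 and mut_2, so its highest and its lowest value were both in Myh10-/- lungs. The log2 fold changes of Adamtsl1 and Adamtsl3 were 0.02 and 0.09. Over the 5 genes the median was -0.04, 1 passed as lower and 0 as higher.

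Of the 9 proteolytic ADAMs of somatic tissues, 0 passed in either direction, and their median log2 fold change was 0.03. The most abundant sheddases had narrow intervals around 0. Adam10 had 282 and 278 CPM in the Myh10+/+ lungs and 268 and 272 CPM in the Myh10-/- lungs. Its log2 fold change was -0.05 with an interval of -0.15 to 0.05. Adam17 had 155 and 143 against 150 and 142 CPM, with overlapping genotypes and an interval of -0.15 to 0.09. Adam9, another broadly expressed sheddase, and Adam19, which acts in heart development and sheds neuregulins, had log2 fold changes of -0.04 (interval -0.17 to 0.09) and 0.03 (interval -0.11 to 0.16).

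Adam15 stood at the lower end of this group. Its product, metargidin, carries an integrin-binding RGD motif in the human protein and is found at cell junctions. Adam15 (ENSMUSG00000028041, chr3:89338542-89349996, minus strand) had 62.1 and 64.7 CPM in the Myh10+/+ lungs and 51.2 and 51.7 CPM in the Myh10-/- lungs. The genotypes were well separated compared with the distance within each. The log2 fold change was -0.30 (95% interval -0.45 to -0.15, edgeR adjusted p = 0.057), and 7 of the 13 alternative fits passed it. In the fit that matched the lungs across genotypes by their Xist level, the edgeR adjusted p was 0.0341. Its exons share 1263 bases with a gene on the opposite strand and 7.67% of its windows of 75 bases, the read length, occur in transcripts of that gene, so its count is uncertain.

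At the upper end were Adam33 and Adam12. Adam33, a gene of airway mesenchyme and smooth muscle linked to asthma, had 6.59 and 8.82 CPM in the Myh10+/+ lungs and 11.8 and 8.83 CPM in the Myh10-/- lungs. Only mut_1 stood clearly above the others, since wt_2 and mut_2 had almost the same level, and the log2 fold change of 0.42 (interval 0.06 to 0.78) had an edgeR adjusted p of 0.223. It was 0.22 without wt_1, 0.21 without mut_1 and 0.62 without mut_2. Adam12, or meltrin alpha, had 113 and 105 against 123 and 116 CPM, a log2 fold change of 0.13 and an edgeR adjusted p of 0.275.

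**Figure D3:**
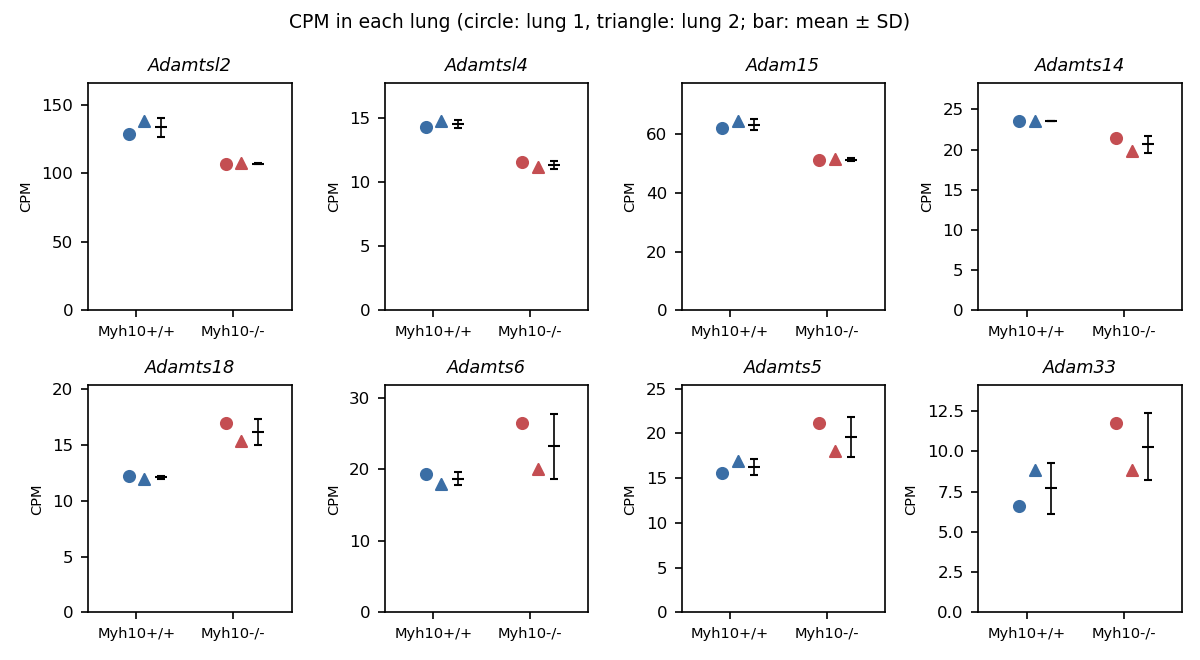
CPM in each lung (circle, lung 1; triangle, lung 2) with the mean and SD of each genotype, for 4 members that were lower and 4 that were higher at an unadjusted p under 0.05. The lower genes have Myh10-/- lungs close together except Adamts14, while in the 4 higher genes mut_1 lies above mut_2.

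The ADAMs without the zinc motif that bind LGI proteins act as receptors at synapses and in the myelin sheath of nerves. All 3 were detected. Adam22 had 18.6 and 19.1 CPM in the Myh10+/+ lungs and 19.8 and 17.6 CPM in the Myh10-/- lungs, and the genotypes overlapped. Adam23 was scarcer, with 5.54 and 5.09 against 4.60 and 4.82 CPM, a log2 fold change of -0.18 with an interval of -0.51 to 0.16. The lowest edgeR adjusted p of the 3 genes was 0.609. Among the 8 tested ADAMs known mostly from testis or epididymis, 0 passed, and the log2 fold changes ranged from -0.42 to 0.40 on few reads. Adam5, the member of this set with the second most reads, had 2.27, 2.99, 3.02 and 3.32 CPM in wt_1, wt_2, mut_1 and mut_2. Its log2 fold change of 0.28 (interval -0.18 to 0.75) was 0.09 without wt_1 and 0.48 without wt_2. Adam1a shares 77.0% of its windows of 75 bases with other genes and Adam1b 31.1% with Adam1a, so reads of both were partly left out.

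The 3 procollagen N-propeptidases, which cut the aminopropeptide from fibrillar procollagens, had log2 fold changes on both sides of 0, and 0 of them passed the adjusted test. Adamts2, the main enzyme for type I procollagen in skin, had 122 and 115 CPM in the Myh10+/+ lungs and 105 and 110 CPM in the Myh10-/- lungs (log2 fold change -0.14, interval -0.26 to -0.02). Adamts14 had 23.5 and 23.6 against 21.4 and 19.9 CPM (log2 fold change -0.19, interval -0.36 to -0.03). Adamts3, which also activates the lymphatic growth factor VEGF-C, had 9.25 and 7.72 against 11.1 and 10.2 CPM (log2 fold change 0.32, interval 0.05 to 0.58, and 0.20 without wt_2). In each of the 3 genes the genotypes did not overlap, as in 48.3% of all tested genes in either direction. The lowest edgeR adjusted p-value of the 3 genes was 0.216. The summed level of the 3 genes was 155 and 147 CPM in the Myh10+/+ lungs and 137 and 140 CPM in the Myh10-/- lungs.

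The 7 ADAMTS genes known for cleaving versican, aggrecan and other proteoglycans had a median log2 fold change of 0.08, with 0 past the adjusted threshold. Adamts1 had 235 and 263 CPM in the Myh10+/+ lungs and 278 and 227 CPM in the Myh10-/- lungs, so that the Myh10-/- lungs held both the highest and the lowest value. Adamts9 had 224 and 228 against 257 and 229 CPM (log2 fold change 0.10, interval -0.02 to 0.22), the difference lying in mut_1. Its exons share 1805 bases with genes on the opposite strand. Adamts5, the aggrecanase central to cartilage breakdown, had 15.6 and 16.9 against 21.1 and 18.02 CPM (log2 fold change 0.27, edgeR adjusted p = 0.176). Adamts20, known from the belted coat-colour mutant, had 4.23 and 3.57 against 6.15 and 4.51 CPM (log2 fold change 0.43, edgeR adjusted p = 0.286). Without mut_1 this log2 fold change was 0.20. Adamts8 was at the lower end with a log2 fold change of -0.22, and 489 bases of its exons are shared with a gene on the opposite strand.

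Among the ADAMTS genes that form pairs of close relatives (Adamts6 with Adamts10, Adamts16 with Adamts18, and Adamts17 with Adamts19), 0 passed the adjusted test in either direction, and whether the partners of a pair differed in their change was not tested. Adamts18 (ENSMUSG00000053399, chr8:113697126-113848738, minus strand), known from the development of branching organs, had 12.2 and 11.97 CPM in the Myh10+/+ lungs and 16.9 and 15.3 CPM in the Myh10-/- lungs. Both Myh10-/- lungs lay above both Myh10+/+ lungs, and the log2 fold change of 0.41 (95% interval 0.21 to 0.62, edgeR adjusted p = 0.0503) just missed the threshold. It passed in 7 of the 13 alternative fits, but not in the fit that matched the lungs by Xist level (edgeR adjusted p = 0.056). Its relative Adamts16 was scarce, with 0.131 and 0.315 against 0.180 and 0.249 CPM, and its log2 fold change of 0.01 had an interval of -1.33 to 1.35. Adamts6 had 19.3 and 18.01 against 26.5 and 20.0 CPM (log2 fold change 0.31, edgeR adjusted p = 0.206), with mut_1 far above the others. Its relative Adamts10 was far more abundant, with 447 and 469 against 501 and 460 CPM (log2 fold change 0.07, interval -0.06 to 0.20), and its genotypes overlapped. Adamts17, like Adamts10 a gene of Weill-Marchesani syndrome, had 122 and 113 against 107 and 108 CPM (log2 fold change -0.13, edgeR adjusted p = 0.282). Adamts19, a gene linked to heart valve development, had 14.8 CPM in each of the Myh10+/+ lungs and 18.05 and 16.03 CPM in the Myh10-/- lungs (log2 fold change 0.20, edgeR adjusted p = 0.285).

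The lungs within the Myh10-/- group differed in several of these genes. By Xist and Ddx3y these lungs also differed in sex, whose part in this was not tested. With mut_2 left out, 7 members passed as higher, namely Adamts5, Adamts6, Adamts9, Adamts12, Adamts18, Adamts20 and Adam33 (15.9% of the tested members, against 4.59% of all tested genes). In that fit 2 members passed as lower (4.55%, against 5.14% of all tested genes). With mut_1 left out, 0 members passed as higher (against 0.266% of all tested genes) and 2, Adamtsl2 and Adam15, as lower (4.55%, against 1.36%). The 8 members that were higher at an unadjusted p under 0.05 had log2 fold changes of 0.10 to 0.34 without mut_1 and of 0.17 to 0.65 without mut_2.

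The members that were lower without adjustment were richer in GC than those that were higher. The GC content of the longest transcript was 53.6 to 60.1% (median 56.1%) in the 6 lower members and 43.0 to 58.2% (median 49.2%) in the 8 higher members, with a median of 49.8% over all tested members. Across the 44 tested members, which share the same 4 libraries, Pearson's r of GC content and log2 fold change was -0.35. Across the 36 with a mean of at least 50 counts it was -0.43. The value over all tested genes was not computed, so whether this is particular to these families was not tested. With a correction of the counts for GC content and exon length, the direction was kept in 42 of all 44 tested members. It was kept in 6 of 6 lower and 8 of 8 higher members. These were picked by their p-value in the same counts, so their keeping it is no separate check. The log2 fold change was then -0.30 for Adamtsl2 (edgeR adjusted p = 0.00943) and 0.41 for Adamts18 (edgeR adjusted p = 0.028). For Adam15 it was -0.27 (edgeR adjusted p = 0.0523).

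**Figure D4:**
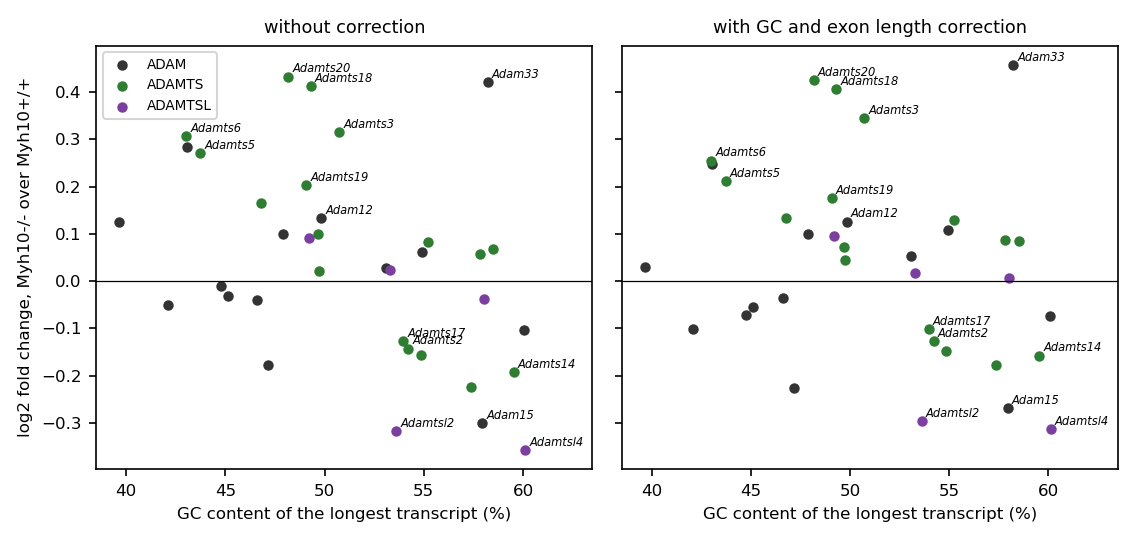
Log2 fold change, Myh10-/- over Myh10+/+, against the GC content of the longest transcript for the 36 members with a mean of at least 50 counts, without (left) and with (right) the correction for GC content and exon length. The members named were picked by an unadjusted p under 0.05 in the fit without the correction. Their points keep their side of 0 in both panels.

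The inhibitors, partners and substrates of these proteases were also compared, as 80 tested genes in 11 lists. Of these 2 were lower and 0 were higher, where the shares of all tested genes were 1.34% and 0.298%. The median log2 fold change was -0.04. Timp3 (ENSMUSG00000020044), the matrix-bound inhibitor with the widest action on ADAM and ADAMTS proteases, had 389 and 345 CPM in the Myh10+/+ lungs and 267 and 287 CPM in the Myh10-/- lungs. The genotypes did not overlap, and the log2 fold change was -0.40 (95% interval -0.54 to -0.27, edgeR adjusted p = 0.0108). Its exons share 1733 bases with Syn3 on the opposite strand. Of the other TIMP genes 0 passed. Timp2 had 186 and 179 against 172 and 176 CPM (log2 fold change -0.07, interval -0.17 to 0.03), and the scarcer Timp1 and Timp4 had log2 fold changes of 0.01 (interval -0.30 to 0.32) and -0.15 (interval -0.72 to 0.41).

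The other partner that passed was Cdh1 (ENSMUSG00000000303), which encodes E-cadherin, a substrate of ADAM10 and a marker of all epithelial cells. It had 388 and 369 CPM in the Myh10+/+ lungs and 304 and 314 CPM in the Myh10-/- lungs (log2 fold change -0.30, 95% interval -0.41 to -0.18, edgeR adjusted p = 0.0178). Without wt_1 the log2 fold change was -0.26 and the test was no longer passed. That fit has only 1 Myh10+/+ lung, so the smaller number of lungs and a dependence on wt_1 cannot be told apart. Of the pan-epithelial markers, 3 of 6 passed as lower, Cdh1 among them, and the part of the epithelial share of the lobe in this value was not tested. The iRhoms and TspanC8 tetraspanins, which carry ADAM17 and ADAM10 to the cell surface, gave 8 tested genes, 0 calls and a median log2 fold change of -0.14. The 4 proprotein convertases, which remove the inhibitory prodomain of these proteases, gave 0 calls and a median of -0.04. The 12 EGF-family ligands and receptors gave 0 calls and a median of 0.01, the 6 fibrillar procollagens 0 calls and 0.01, and the 6 fibrillins and TGF-beta binding proteins 0 calls and -0.05. Of the 4 proteoglycan substrates 0 passed. Versican (Vcan), the abundant one of these in the lung, had 283 and 295 against 345 and 306 CPM (log2 fold change 0.17, interval 0.04 to 0.30, edgeR adjusted p = 0.171), while Ncan, Acan and Bcan had at most 1.26 CPM in any lung. The matrix metalloproteinases, a neighbouring family of zinc proteases, gave 0 calls among 12 tested genes of 18 in the table, with a median of -0.07 and a range of -0.65 to 0.62. Mmp2 had 271 and 273 against 250 and 255 CPM (log2 fold change -0.11, interval -0.20 to -0.01, edgeR adjusted p = 0.263). The study reported a strong rise of MMP2 activity in lysates of mutant lungs at a later embryonic stage. RNA levels do not measure that activity.

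**Figure D5:**
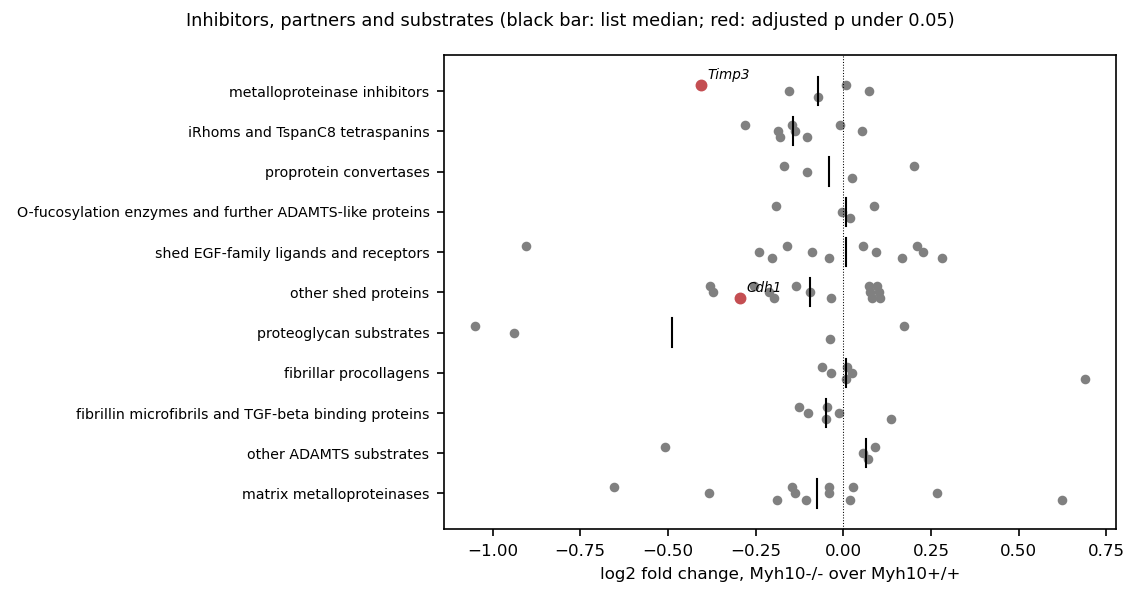
Log2 fold change, Myh10-/- over Myh10+/+, of the 80 tested inhibitors, partners and substrates, with 1 point per gene, a black bar at the median of each list and red points for an adjusted p under 0.05. Timp3 and Cdh1 are the red points, at -0.40 and -0.30, and the list medians lie between -0.14 and 0.06 except for the 4 proteoglycan substrates (-0.49), of which all but Vcan, at 0.17, are scarce.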

How the data were processed

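Total RNA of E17 left lung lobes was made into stranded mRNA libraries and sequenced as single-end reads of 75 bases. Per the labels and the study's methods, the authors used Reaper for trimming, STAR 2.4.0a for alignment to GRCm38 and featureCounts 1.5.1 for counting. A read was counted if any of it lay in an exon, and was dropped if it touched more than 1 gene or had more than 1 alignment. The values deposited by the authors are raw counts per gene, not normalized. Whether the counting used strand is not given in the sources used here, so genes with an antisense overlap are uncertain.

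All genes whose mean count reached 5 were tested together with edgeR 4.0.16 in R 4.3.3, with genotype as the only term. The settings were TMM, glmQLFit with robust = FALSE, glmQLFTest, two-sided, Benjamini-Hochberg. The code was also run on simulated counts, with larger changes than those of the members and the same spread for all genes. That run does not check calls of the size reported here. SE is the log2 fold change divided by the square root of F, and intervals are 95%. Total counts were 23156026 and 19116971 (Myh10+/+) and 27573824 and 32055306 (Myh10-/-), and replicate lungs differed by more than counting error, so the 2 lungs per genotype limit the precision. Positions, exon lengths, GC content, overlaps and coding sequences came from GENCODE M21 on GRCm38.

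Members and lists were chosen with earlier results of these data known. Named were members with an unadjusted p under 0.05, the 4 most abundant per exon length and the 2 lowest and 2 highest fold changes (mean of at least 50 counts) of each family, TIMP genes, and partners past an adjusted p of 0.05. Further names, such as those given for few reads, for a pair or for the fits without a lung, were chosen after their values were seen. Alternatives were DESeq2 1.42.0 (Wald test, or its size factors in edgeR), library totals, robust = TRUE, other filters on low counts, leaving out chromosomes X, Y and MT, a replicate block, a threshold of 0.1 and leaving out each lung. Added after seeing the data were a crossed block and an offset per lung for GC content and exon length (loess, span 0.3), alone and with either block.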

Additional observations from a re-analysis of the deposited data

How the results depend on the processing

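The median log2 fold change of the members (0.025) moved by less than the spread between lungs under every alternative run, from -0.007 to 0.070 with 1 lung left out. Counts of calls moved more, and where not said otherwise the cause was not tested. The count of lower members, 1 in the report, was 2 with DESeq2's Wald test, with robust = TRUE and without chromosomes X, Y and MT, 3 without a filter (which fits more genes of low count) and 3 at a threshold of 0.1. The count of higher members, 0 in the report, was 1 with library totals, with robust = TRUE, with the GC and exon length correction and at a threshold of 0.1, and 3 without a filter. The count of lower partners, 2 in the report, was 4 with DESeq2's Wald test and at a threshold of 0.1 and 6 without a filter. That of higher partners, 0 in the report, was 1 with robust = TRUE and at a threshold of 0.1 and 2 without a filter. Of all tested genes 308 passed, against 474 with robust = TRUE, 1162 without a filter and 696 at a threshold of 0.1.

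The labels number the lungs 1 and 2 in each genotype but name no shared litter, and the deviations of same-numbered lungs correlated at -0.346 over all tested genes (0.0311 without chromosomes X and Y), so the numbers were not taken as pairs. With the replicate block, 3 members were lower and 1 higher, 4 partners lower and 1 higher, and 710 of all genes passed, and with the GC and exon length correction and the block 1 member was higher and 499 of all genes passed. With the crossed block, which pairs wt_1 with mut_2 and wt_2 with mut_1 as their Xist levels do, 2 members were lower and 1 partner higher, and together with the correction 2 members were lower and 2 higher, 6 partners lower and 2 higher, and 1109 of all genes passed.

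Leaving out 1 lung leaves the other lung of that genotype alone, and it is then assumed to vary like the other genotype. The counts ranged over these fits from 0 to 2 lower members, 0 to 7 higher members, 2 to 8 lower partners, 0 to 6 higher partners and 191 to 1826 of all genes. Members with values near 0 changed sign in some of these fits, with log2 fold changes from -0.09 to 0.03 for Adam17, -0.03 to 0.09 for Adam19, -0.09 to 0.01 for Adam9, -0.13 to 0.16 for Adamts1, -0.06 to 0.12 for Adamtsl1 and -0.25 to 0.15 for Adamtsl5. Adamtsl5 was also at 0.01 with the GC and exon length correction and at 0.00 with it and the crossed block. In the counts that follow, values to which DESeq2's Wald test gave no adjusted p were compared by direction alone. Those of Adam5 and Adam23 are examples. Of 459 values of the 27 named members under the alternatives, 419 kept their direction and their side of the threshold, 27 newly passed, 12 changed sign and 1, Adamtsl2 without wt_2, no longer passed.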
